A study of Mus musculus with 9 samples.

Results

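A group of 10 NRF2, glutathione and thioredoxin genes was followed in 4T1 mammary carcinoma cells in which Yap1 had been knocked down. They are Nfe2l2, which encodes NRF2 itself, Gclc, Gclm, Gsr, Gpx1 and Gpx4 of glutathione synthesis and use, Txnrd1 and Srxn1 of the thioredoxin and peroxiredoxin system, and Hmox1 and Nqo1. The 10 were chosen by symbol, through the Ensembl identifier and GENCODE vM21, from the 16962 genes of the series, and each was present in both deposited tables. 4T1 is a mouse mammary carcinoma line, described by the labels as breast cancer. It gave 3 groups of 3 libraries: shCTRL, labelled WT and negative control, and shYap-1 and shYap-2, both labelled as Yap knockdown. All 3 groups carry a hairpin RNA, so none is an unmanipulated line, and the 3 shCTRL libraries serve as the control of both knockdowns. The labels do not say whether replicates were separate cultures, nor how long the knockdown lasted, and each p-value therefore measures only the spread between these libraries.

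NRF2 is a transcription factor that pairs with small MAF proteins and binds antioxidant response elements in the regulatory regions of its target genes. In unstressed cells the adaptor KEAP1 holds it for ubiquitination by a CUL3 ligase, and electrophiles or oxidants that modify KEAP1 let NRF2 accumulate, so that NRF2 activity is set largely at the level of the protein, which RNA does not measure. Its targets make and recycle glutathione, restore thioredoxin and peroxiredoxins, supply NADPH, and handle haem, iron and quinones. Many carcinomas rely on this programme to withstand oxidative and drug stress.

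Gene abundance was given as FPKM, fragments mapped to a gene scaled by transcript length and library depth, with depths estimated from the values at 19.5 to 28.05 M fragments per library. Yap1, the targeted gene, had FPKM of 49.26, 48.31 and 48.81 in shCTRL replicates 1, 2 and 3, of 8.03, 9.05 and 9.23 under shYap-1, and of 11.04, 10.37 and 9.79 under shYap-2. Its log2 fold change was -2.35 under shYap-1 (SE 0.0701, limma adjusted p = 9.3e-07) and -2.13 under shYap-2 (SE 0.0496, adjusted p = 4.26e-09). All 5 epithelial markers examined were expressed, with summed FPKM of 1892 to 1996 in shCTRL, 2197 to 2474 under shYap-1 and 2304 to 2325 under shYap-2. The markers did not move together. Mean FPKM in shCTRL, shYap-1 and shYap-2 was 638.9, 1017 and 988 for Krt8, and 882.7, 772.4 and 829.5 for Krt18. In contrast, summed FPKM reached at most 1.77 for the 5 leukocyte markers found in both tables and 0.85 for the 6 fibroblast and endothelial markers. In each of these low lists between 1 and 3 markers were at 0 in every library. Replicate 2 of shYap-1 stood apart: its deviations from its fellow replicates rose with the GC content of genes (Spearman's rho 0.706 over 10731 genes, against -0.641 and -0.555 in replicates 1 and 3 of its group and -0.38 to 0.386 in the other 6 libraries). Replicate 2 is part of the reference for replicates 1 and 3, so the rho values within this group depend on each other. Mitochondrial genes took 2.01% of the summed FPKM of replicate 2, against 4.23% and 3.97% in its fellow replicates.

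Of the 10 genes, 7 rose, 2 fell and 1 did not pass the test with either hairpin. Gsr, Gpx1, Gpx4, Hmox1, Nqo1, Txnrd1 and Srxn1 rose with both, and Nfe2l2 and Gclc fell with both. Gclm, the modifier subunit of the enzyme whose catalytic subunit is Gclc, was not called. The test was limma on log2(FPKM + 1), with Benjamini-Hochberg adjustment over all genes tested and a threshold of 0.05, and a fold change on this scale understates the change of genes of low abundance. Against this count stands a response that reached most genes: 65.2% of the 10647 genes tested were called under shYap-1, 37.6% as rises and 27.6% as falls, and 73.7% of 10615 under shYap-2, 43.2% as rises and 30.5% as falls. For the mean of both hairpins in 1 model of all 9 libraries the counts were again 7, 2 and 1, beside 71.4% of 10733 genes called, 41.5% as rises and 29.9% as falls. The 9 calls among the 10 genes are to be read against these shares. Their median log2 fold change was 0.44 under shYap-1 and 0.42 under shYap-2, beside 0.07 and 0.08 over all genes tested. Nqo1 entered the test only through the knockdown libraries, since it was below an FPKM of 1 in every shCTRL library. Of the 9 that passed the filter in shCTRL and knockdown libraries alike, 6 rose and 2 fell with each hairpin, with medians of 0.40 and 0.41. Without replicate 2 of shYap-1 Nqo1 was not tested, and 6 of the other 9 rose and 2 fell.

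**Figure D1:**
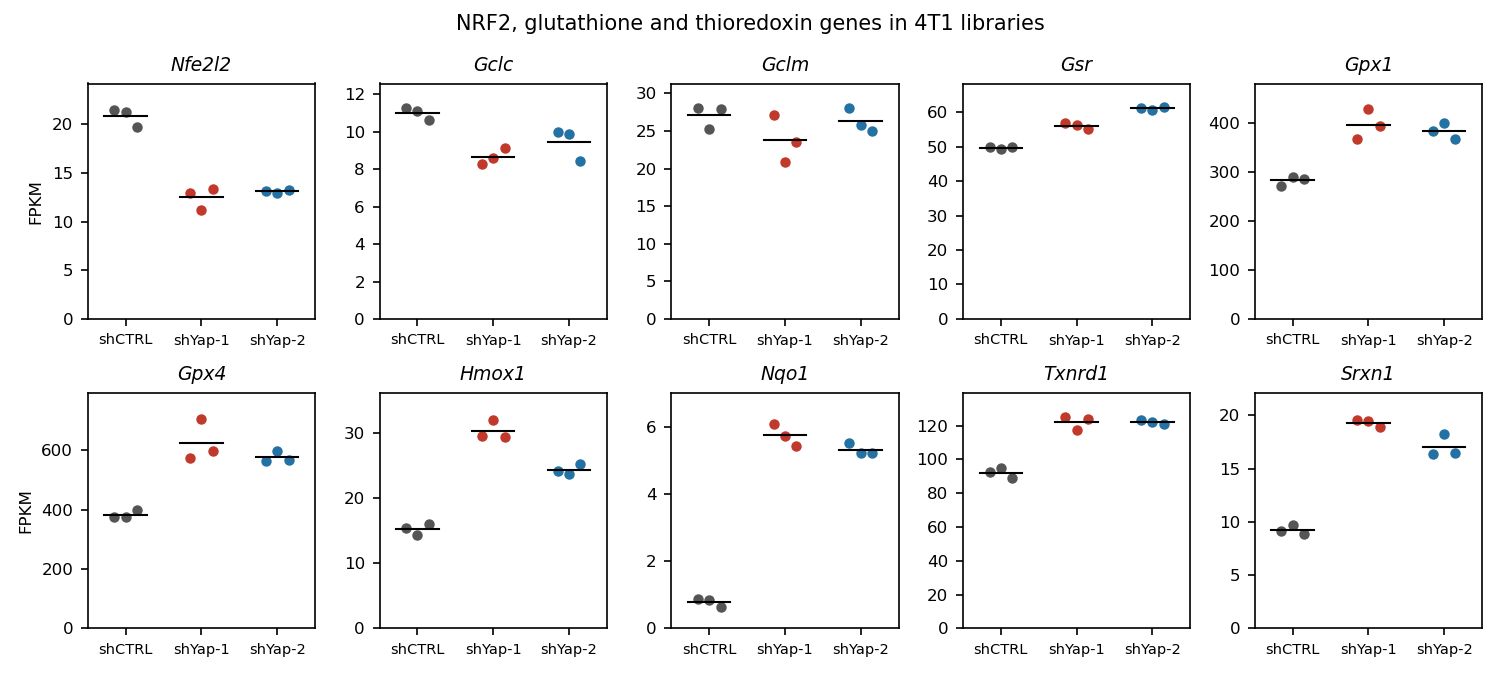
FPKM of the 10 genes in each library, with axes that start at 0; points are libraries, placed left to right as replicates 1, 2 and 3, and black lines are group means. Nfe2l2 and Gclc lie lower in all 6 knockdown libraries, Gclm overlaps between groups, and the other 7 genes lie higher in all 6 knockdown libraries than in the 3 shCTRL libraries. How many of all genes are separated in this way was not counted.

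Nfe2l2 (ENSMUSG00000015839, chr2:75675513-75704641, minus strand, GRCm38) was lowered by both hairpins. Its FPKM was 21.48, 21.23 and 19.75 in shCTRL, 12.93, 11.24 and 13.36 under shYap-1, and 13.19, 12.95 and 13.29 under shYap-2. Every knockdown library was below every shCTRL library, and group means were 20.8 ± 0.935, 12.5 ± 1.12 and 13.1 ± 0.175 (SD, n = 3 each), 0.601 and 0.631 of the shCTRL mean. In bulk RNA such a fall cannot be told apart from a smaller share of cells that express the gene. The log2 fold change was -0.69 under shYap-1 (SE 0.0831, limma adjusted p = 0.000249) and -0.62 under shYap-2 (SE 0.0493, adjusted p = 3.52e-06). The difference between the hairpins was 0.07, with a 95% interval of -0.09 to 0.23 (adjusted p = 0.649). Over the 9 libraries, the profile of log2(FPKM + 1) most like that of Nfe2l2 was Steap1 (Pearson's r 0.998), followed by Ogt (0.998), Tbpl1 (0.997), Ptpn22 (0.997) and Atf6 (0.997), among 8754 genes compared. The points share the 3 groups and their libraries, and 826 genes (9.44%) had an r above 0.95, so the likeness is common.

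Genes that regulate NRF2, or share its binding sites, held both rises and falls. Of 12 tested among 13 regulators and partners, 6 rose and 4 fell under shYap-1, and 5 rose and 5 fell under shYap-2. These counts are near the background of 37.6% rises and 27.6% falls under shYap-1 and of 43.2% and 30.5% under shYap-2. The medians were 0.07 and -0.10, beside 0.07 and 0.08 over all genes. Keap1, the adaptor that presents NRF2 for degradation, had FPKM of 26.56, 28.21 and 30.55 in shCTRL, 16.48, 24.49 and 17.55 under shYap-1, and 22.06, 21.79 and 19.83 under shYap-2. It was lower in all 6 knockdown libraries, with the apart-standing replicate 2 of shYap-1 the nearest to shCTRL, and its log2 fold changes were -0.54 (SE 0.143, limma adjusted p = 0.0119) and -0.40 (SE 0.062, adjusted p = 0.000284). Cul3, the scaffold of the same ligase, fell by 0.92 (SE 0.204) and 0.68 (SE 0.0683) on the log2 scale. Its FPKM under shYap-1 was 30.88, 16.68 and 27.05, with replicate 2 by far the lowest. In the 17 alternatives its shYap-1 value ran from -1.09 to -0.665 and kept its call. Btrc, the F-box protein of a second, KEAP1-independent route of NRF2 degradation, rose by 0.62 and 0.47.

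Bach1 encodes a repressor that pairs with small MAF proteins and occupies antioxidant response elements, Hmox1's among them. Its FPKM was 8.91, 7.92 and 8.93 in shCTRL, 16.64, 15.45 and 16.19 under shYap-1, and 15.04, 13.66 and 14.22 under shYap-2. Bach1 thus lay higher in every knockdown library, and the log2 fold change was 0.84 (SE 0.0761, limma adjusted p = 6.39e-05) and 0.68 (SE 0.064, adjusted p = 1.19e-05). The small MAF genes, whose products pair with both NRF2 and BACH1, fell: Mafg by 0.55 and 0.45 and Maff by 0.62 and 0.71 on the log2 scale. Mafk fell by 0.25 under shYap-2. Its log2 fold change under shYap-1 was -0.11 (adjusted p = 0.362), and without replicate 2 of that group it was -0.22 (adjusted p = 0.00716).

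Glutathione is made from glutamate, cysteine and glycine, and glutamate-cysteine ligase, the enzyme of the first and rate-limiting step, is a pair of the catalytic subunit Gclc and the modifier subunit Gclm. Gclc (ENSMUSG00000032350, chr9:77754535-77794485) had FPKM of 11.29, 11.1 and 10.65 in shCTRL, 8.27, 8.6 and 9.14 under shYap-1, and 10, 9.9 and 8.46 under shYap-2. All knockdown libraries were below the shCTRL libraries, and 2 of the 3 shYap-2 libraries were closer to shCTRL than any shYap-1 library. The log2 fold change was -0.31 under shYap-1 (SE 0.0722, limma adjusted p = 0.00633) and -0.20 under shYap-2 (SE 0.0698, adjusted p = 0.0252). The shYap-2 call ended when shCTRL replicate 1 or 2 or shYap-2 replicate 3 was left out (log2 fold change -0.19, -0.20 and -0.13, adjusted p = 0.0645, 0.0629 and 0.0832), and also after removal of a trend on GC content (-0.15, adjusted p = 0.0781).

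Gclm (ENSMUSG00000028124, chr3:122245557-122270732) had FPKM of 28.03, 25.27 and 27.92 in shCTRL, 27.15, 20.92 and 23.5 under shYap-1, and 28.12, 25.8 and 24.99 under shYap-2. The 3 groups overlapped. Its log2 fold change was -0.18 under shYap-1 (SE 0.101, limma adjusted p = 0.149) and -0.04 under shYap-2 (SE 0.0588, adjusted p = 0.553). Gclm became a fall under shYap-1 when replicate 1 of that group was left out (-0.28, adjusted p = 0.0329), and with median-of-ratios (-0.27, adjusted p = 0.0399) or trimmed-mean scaling (-0.26, adjusted p = 0.0431). Its lowest value is in shYap-1 replicate 2, and Gclm has the lowest GC content of the 10 genes, 42.1%. With the GC trend removed the value under shYap-1 was -0.0037 (adjusted p = 0.964). Of its 6291 exonic bases, 296 overlap an antisense transcript gene and 244 a pseudogene on the same strand, neither of which is in the tables.

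The widest falls in glutathione metabolism were upstream and downstream of this enzyme. Slc7a11, the light chain of the cystine importer xCT, had FPKM of 8.57, 9.02 and 6.86 in shCTRL, 0.72, 0.52 and 0.62 under shYap-1, and 0.77, 0.69 and 0.87 under shYap-2. Slc7a11 is a textbook NRF2 and ATF4 target, and here it was below an FPKM of 1 in all 6 knockdown libraries, so that it entered the test through the shCTRL libraries alone. The log2 fold change was -2.49 under shYap-1 (SE 0.114, limma adjusted p = 3.39e-06) and -2.36 under shYap-2 (SE 0.102, adjusted p = 8.79e-08). Slc3a2, its heavy chain partner, which also serves other amino acid transporters, went from FPKM of 262 to 274 in shCTRL to 113 to 131 under shYap-1 and 110 to 114 under shYap-2, and fell by 1.14 and 1.25 on the log2 scale. Cth, which makes cysteine by transsulfuration, fell by 0.61 and 0.45; Slc3a2 and Cth are named here after their values were seen. Chac1, which degrades glutathione, fell by 3.19 and 3.17.

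Across 14 genes tested of 18 in the list of glutathione supply, use and breakdown, 7 rose and 5 fell with each hairpin, with medians of 0.16 and 0.20. Over all genes 37.6% and 43.2% rose and 27.6% and 30.5% fell, so these counts are near the background. Of the 11 that passed the filter in both groups, 5 rose and 4 fell with each hairpin, with medians of 0.09 and 0.18. The count of falls under shYap-1 was 3 without any one shCTRL library, and the count of rises under shYap-2 was 4 without its replicate 2 or 3. Slc7a11 left the test without any one shCTRL library, and Cbs and Oplah without any one knockdown library. Part of these drops is therefore a loss of tests. Glrx, a glutaredoxin that uses glutathione to reduce mixed disulfides, rose from FPKM of 12.09 to 16.14 in shCTRL to 33.25 to 35.27 under shYap-1 and 30.91 to 31.97 under shYap-2 (log2 fold change 1.18 and 1.08). Glrx5, the mitochondrial glutaredoxin of iron-sulfur cluster assembly, rose by 0.76 and 0.70. Gss, the enzyme of the second and last step of glutathione synthesis, rose by 0.42 (limma adjusted p = 0.00603) and 0.18 (adjusted p = 0.0421), the latter lost without any one of shCTRL replicates 1 and 3 or shYap-2 replicates 2 and 3 (adjusted p = 0.125, 0.0882, 0.0642 and 0.146) and with either scaling (0.10 with both, adjusted p = 0.241 and 0.214).

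Gsr, Gpx1 and Gpx4, which recycle or spend glutathione, rose with both hairpins, Gsr by the least. Gsr (ENSMUSG00000031584, chr8:33652523-33698163), glutathione reductase, had FPKM of 49.86, 49.34 and 49.95 in shCTRL, 56.99, 56.24 and 55.06 under shYap-1, and 61.24, 60.79 and 61.56 under shYap-2. The 3 groups formed 3 steps without overlap, at 1.13 and 1.23 times the shCTRL mean. The log2 fold change was 0.17 under shYap-1 (SE 0.0505, limma adjusted p = 0.0193) and 0.29 under shYap-2 (SE 0.0316, adjusted p = 2.71e-05). The small shYap-1 rise was lost when any 1 shCTRL library was left out (adjusted p = 0.0624, 0.0769 and 0.0624) or shYap-1 replicate 1 (adjusted p = 0.0648), and fell to 0.08 (adjusted p = 0.213) and 0.09 (adjusted p = 0.182) with median-of-ratios and trimmed-mean scaling.

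Gpx1 (ENSMUSG00000063856, chr9:108338903-108340343), the selenoenzyme that reduces hydrogen peroxide, had FPKM of 271.74, 289.98 and 285.2 in shCTRL, 367.24, 428.58 and 392.61 under shYap-1, and 384.22, 399.74 and 366.96 under shYap-2. No knockdown library reached down to the shCTRL range. Gpx1 stood at 1.40 and 1.36 times the shCTRL mean, with log2 fold changes of 0.48 (SE 0.0688, limma adjusted p = 0.000585) and 0.44 (SE 0.0392, adjusted p = 7.83e-06).

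Gpx4 (ENSMUSG00000075706, chr10:80047166-80056439), which reduces lipid hydroperoxides within membranes and is the central inhibitor of ferroptosis, was the most abundant of the 10 genes in every group. Its FPKM was 375.4, 375.23 and 398.88 in shCTRL, 574.34, 704.64 and 598.43 under shYap-1, and 565.16, 596.53 and 568.19 under shYap-2. The gap between the highest shCTRL and the lowest knockdown library exceeded the spread within any group, and the group means were 1.63 and 1.51 times that of shCTRL. The log2 fold changes were 0.70 (SE 0.0834, limma adjusted p = 0.000241) and 0.59 (SE 0.0353, adjusted p = 6.07e-07). The highest Gpx1 and Gpx4 values were in shYap-1 replicate 2, and these genes have the highest GC content of the 10, 57.2% and 60.2%. Without that library the log2 fold changes under shYap-1 were 0.43 for Gpx1 and 0.61 for Gpx4. With the GC trend removed Gpx1 came to 0.30 under shYap-1 and 0.28 under shYap-2 (adjusted p = 0.000453 and 0.000154), and Gpx4 to 0.53 and 0.44 (adjusted p = 7.07e-06 and 1.1e-06). This removal also takes out any difference between knockdown and shCTRL that follows GC content, so it does not isolate the part of replicate 2. Gpx4 has 1 named pseudogene, Gpx4-ps2, and how shared reads were assigned is not given in the sources used here. Of the other 6 glutathione peroxidases only Gpx8, of the endoplasmic reticulum, was tested; its log2 fold change was 0.23 under shYap-1 (adjusted p = 0.33) and 0.37 under shYap-2 (adjusted p = 0.001). For Gpx8 the shYap-1 value was 0.48 without replicate 2 of that group (adjusted p = 0.000542) and 0.38 after removal of the GC trend (adjusted p = 0.0451), both calls, and the shYap-2 call was lost in 1 fit of all 9 libraries (adjusted p = 0.0878).

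The glutathione S-transferases attach glutathione to electrophiles. Of 12 tested among 23, 9 rose under shYap-1 and 11 under shYap-2, and 0 fell, beside 37.6% and 43.2% of all genes that rose and 27.6% and 30.5% that fell. Gsta1, Gsto2 and Mgst2 passed the filter only through the knockdown libraries, where they are high. Of the other 9, 6 and 8 rose, and their medians were 0.25 and 0.27, against 0.89 and 0.79 over the 12. The count under shYap-1 was 5 without its replicate 3, and that under shYap-2 was 7 without its replicate 1 or 3. Gsta1, Gsto2 and Mgst2 left the test whenever a knockdown library was left out, so part of these drops is a loss of tests. Mgst1, a microsomal transferase that also reduces lipid peroxides, had FPKM of 4.28, 4.29 and 4.67 in shCTRL, 33.85, 35.57 and 32.18 under shYap-1, and 25.06, 23.84 and 25.11 under shYap-2. It rose by 2.69 and 2.25 on the log2 scale (SE 0.0729 and 0.0555, limma adjusted p = 7.08e-07 and 4.97e-09). Gsto2, a transferase with dehydroascorbate reductase activity, went from FPKM below 1 in all 3 shCTRL libraries to 5.47 to 6.69 and 4.75 to 5.29.

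Txnrd1 (ENSMUSG00000020250, chr10:82833951-82897712), the cytosolic selenoprotein that reduces thioredoxin with NADPH, had FPKM of 92.27, 94.7 and 89.1 in shCTRL, 124.83, 117.5 and 123.73 under shYap-1, and 123.3, 121.87 and 121.23 under shYap-2. The knockdown groups overlapped each other and not shCTRL, both at 1.33 times its mean. The log2 fold change was 0.40 under shYap-1 (SE 0.0539, limma adjusted p = 0.00043) and 0.41 under shYap-2 (SE 0.0329, adjusted p = 4.29e-06). The difference between hairpins was 0.00, with a 95% interval of -0.10 to 0.10. Srxn1 (ENSMUSG00000032802, chr2:152105516-152111376), sulfiredoxin, returns over-oxidised peroxiredoxins to their working form. Its FPKM was 9.12, 9.67 and 8.9 in shCTRL, 19.55, 19.51 and 18.87 under shYap-1, and 16.36, 18.24 and 16.45 under shYap-2. Srxn1 was 2.09 and 1.84 times the shCTRL mean, with every shYap-1 library above every shYap-2 library. The log2 fold changes were 0.99 (SE 0.0665, limma adjusted p = 1.53e-05) and 0.82 (SE 0.0603, adjusted p = 2.24e-06).

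Of the 17 genes in the list of thioredoxins and peroxiredoxins, all tested, 10 rose and 3 fell under shYap-1, and 12 rose and 3 fell under shYap-2, with medians of 0.42 and 0.44. Over all genes 37.6% rose and 27.6% fell under shYap-1, and 43.2% and 30.5% under shYap-2. Txn1, cytosolic thioredoxin, had log2 fold changes of 0.09 (limma adjusted p = 0.136) and 0.08 (adjusted p = 0.0369). The shYap-1 value of Txn1 became a call after removal of the GC trend (0.18, adjusted p = 0.00254) and without replicate 2 of that group (0.10, adjusted p = 0.021). Its shYap-2 value turned direction with median-of-ratios and trimmed-mean scaling (-0.0105, adjusted p = 0.763, and -0.0049, adjusted p = 0.889), and lost its call in 1 fit of all 9 libraries (adjusted p = 0.107), without a filter (adjusted p = 0.0502), without trend (adjusted p = 0.124), and without shCTRL replicate 2 (adjusted p = 0.129) or shYap-2 replicate 1 or 2 (adjusted p = 0.158 and 0.0911). Txnip, the inhibitor that binds reduced thioredoxin, rose from FPKM of 6.21 to 7.69 in shCTRL to 27.32 to 32.32 under shYap-1 and 25.54 to 26.46 under shYap-2 (log2 fold change 1.92 and 1.75). The sestrins Sesn3 and Sesn2, stress proteins tied to peroxiredoxins and to restraint of mTORC1, moved apart: the first rose by 1.98 and 1.72 and the second fell by 1.90 and 1.93. Prdx1, the cytosolic peroxiredoxin, had FPKM of 278.53, 247.04 and 227.89 in shCTRL, 475.2, 281.11 and 440.78 under shYap-1, and 401.12, 378.71 and 377.82 under shYap-2. Replicate 2 of shYap-1 lay just above the shCTRL range, and the shYap-1 rise of 0.63 (limma adjusted p = 0.0204) was lost without shCTRL replicate 2 or 3 or shYap-1 replicate 1 or 3 (adjusted p = 0.0601, 0.0678, 0.056 and 0.0665). Under shYap-2 it rose by 0.62 (adjusted p = 2.16e-05). Prdx3, the mitochondrial peroxiredoxin, fell by 0.54 and 0.45.

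**Figure D2:**
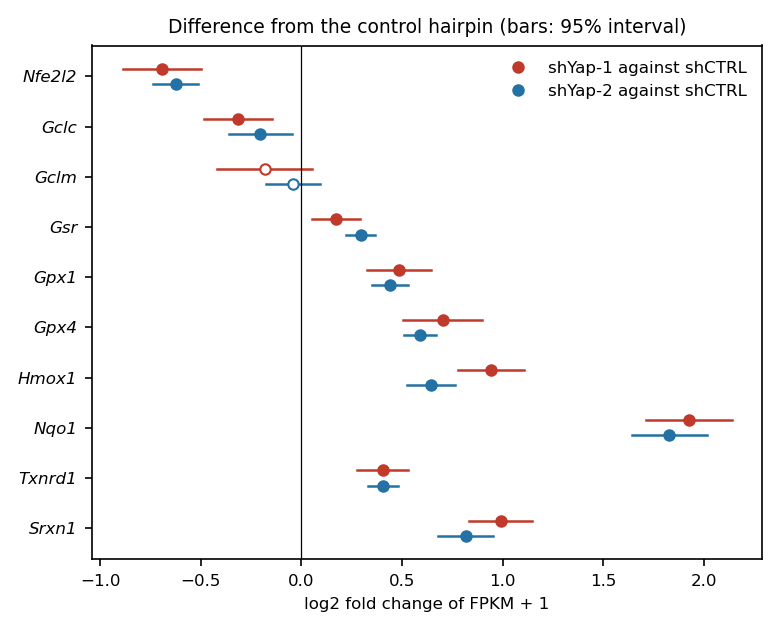
Log2 fold change of FPKM + 1 against shCTRL for each of the 10 genes under shYap-1 (red) and shYap-2 (blue); bars are 95% intervals from limma, filled points passed an adjusted p of 0.05 and open points did not. Nqo1 has the widest change, 1.92 and 1.83, and Nfe2l2 the lowest, -0.69 and -0.62.

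Hmox1 (ENSMUSG00000005413, chr8:75093621-75100589), haem oxygenase 1, breaks haem down to biliverdin, carbon monoxide and iron, and is induced by NRF2 and held down by BACH1. Its FPKM was 15.43, 14.38 and 16.02 in shCTRL, 29.51, 31.98 and 29.33 under shYap-1, and 24.23, 23.75 and 25.22 under shYap-2. The 3 groups did not overlap, under shYap-1 the highest, at 1.98 times the shCTRL mean, and shYap-2 at 1.60 times. The log2 fold changes were 0.94 (SE 0.0704, limma adjusted p = 2.42e-05) and 0.64 (SE 0.0523, adjusted p = 4.3e-06). Hmox1 and Bach1, the gene of its repressor, were therefore both higher in all 6 knockdown libraries. Nfe2l2 fell while Hmox1 rose: the ratio of Hmox1 to Nfe2l2 FPKM was 0.718, 0.677 and 0.811 in shCTRL, 2.28, 2.85 and 2.19 under shYap-1, and 1.84, 1.83 and 1.9 under shYap-2.

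Nqo1 (ENSMUSG00000003849, chr8:107388225-107403206, minus strand), a quinone reductase that is often used as a reporter of NRF2 activity, was low in the control cells. Its FPKM was 0.87, 0.84 and 0.64 in shCTRL, about 33, 29 and 24 fragments at the estimated depths. Under shYap-1 it was 6.1, 5.74 and 5.44, about 266, 174 and 207 fragments, and under shYap-2 it was 5.53, 5.22 and 5.21, about 230, 223 and 176 fragments. Every knockdown library was far above every shCTRL library, the ratio of mean FPKM being 7.35 and 6.79. The log2 fold change of FPKM + 1 was 1.92 under shYap-1 (SE 0.0911, limma adjusted p = 3.86e-06) and 1.83 under shYap-2 (SE 0.0825, adjusted p = 1.11e-07), the widest of the 10. It remained the member of lowest abundance in each group.

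The list of other genes known as NRF2 targets held mostly rises. Of 30 tested among 34, 20 rose and 2 fell under shYap-1 and 24 rose and 2 fell under shYap-2, with medians of 0.59 and 0.56. Beside this stand 37.6% rises and 27.6% falls over all genes under shYap-1, and 43.2% and 30.5% under shYap-2. The list was chosen with earlier results of these data known, so this comparison is not an independent test. Some of its genes, Mgst1 and Slc7a11 among them, are also counted in other lists. Of the 27 that passed the filter in both groups, 18 and 22 rose and 1 fell with each hairpin, with medians of 0.58 and 0.54. The falls were Slc7a11 and Tkt. Slc7a11 reached an FPKM of 1 only in shCTRL, so it left the test without any one shCTRL library. The count of falls was then 1 with each hairpin. In the 14 alternatives that tested it, Slc7a11 kept its call with each hairpin. Aox1, aldehyde oxidase, had FPKM of 1.06, 0.91 and 1.16 in shCTRL, 19.6, 17.36 and 19.11 under shYap-1, and 15.6, 15.52 and 16.01 under shYap-2, and rose by 3.27 and 3.03 on the log2 scale (SE 0.0878 and 0.0698, limma adjusted p = 7.08e-07 and 4.26e-09). It passed the filter only through the knockdown libraries. Aldh3a1, an aldehyde dehydrogenase named here after its values were seen, went from 1.03 to 1.36 in shCTRL to 10.97 to 12.72 and 9.05 to 10.73.

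The iron-storing ferritin chains rose, Ftl1 from FPKM of 1766 to 1840 in shCTRL to 5604 to 6231 under shYap-1 and 5133 to 5140 under shYap-2 (log2 fold change 1.70 and 1.52), and Fth1 by 0.73 and 0.75. The ferritin genes have many processed copies in the mouse genome, so reads may be shared with them. Of genes that supply NADPH, G6pdx, which opens the pentose phosphate pathway, rose from 38.49 to 40.97 in shCTRL to 85.28 to 92.1 and 80.03 to 83.93 (log2 fold change 1.13 and 1.03), and Me1, malic enzyme, rose by 0.75 and 0.63. Tkt, transketolase of the later part of the pentose phosphate pathway, fell by 0.35 and 0.19.

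**Figure D3:**
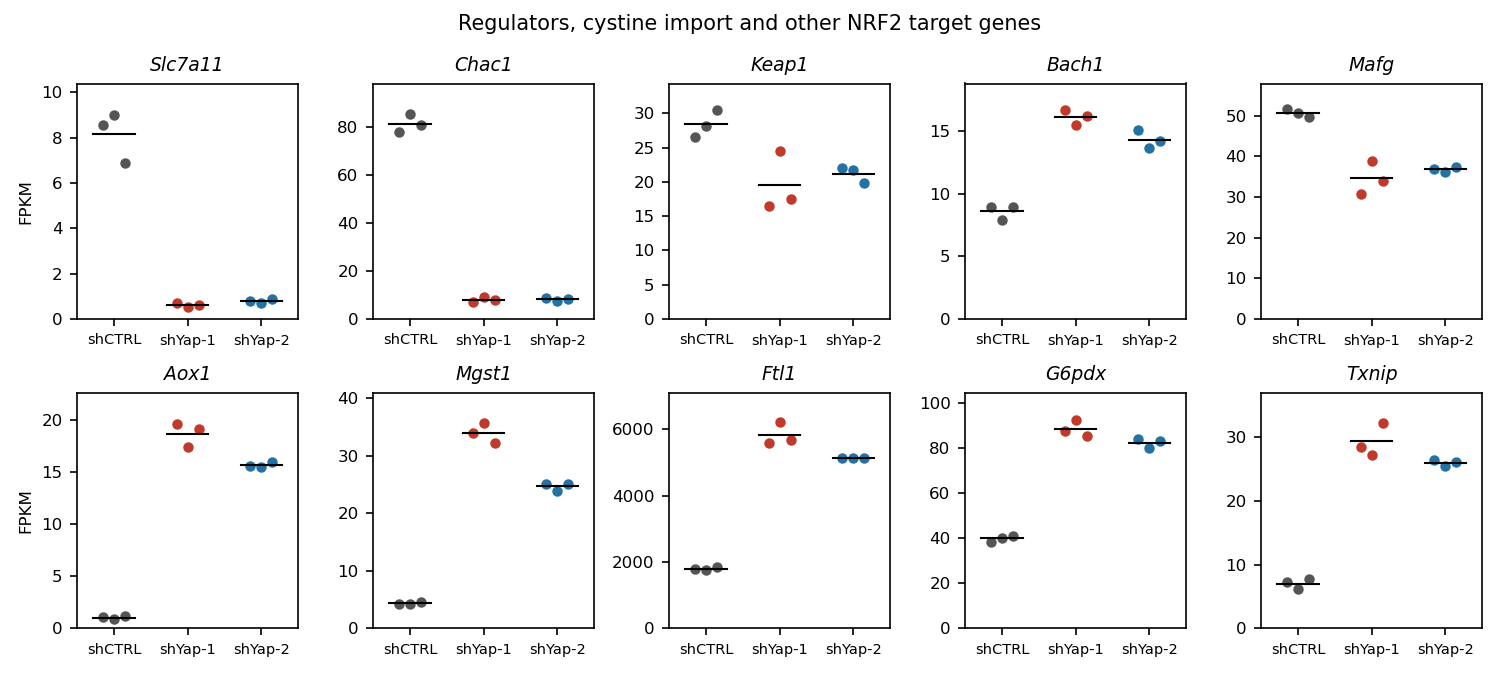
FPKM per library of 10 genes around the members: the cystine importer chain Slc7a11, the glutathione-degrading Chac1, the regulators Keap1, Bach1 and Mafg, and Aox1, Mgst1, Ftl1, G6pdx and Txnip; points are libraries, lines are group means and axes start at 0. Slc7a11, Chac1, Keap1 and Mafg are lower, and the other 6 higher, in all 6 knockdown libraries.

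Peroxide defence outside the glutathione and thioredoxin systems was covered by a list of 12 genes. Of 11 tested superoxide dismutases, catalase and related genes, 5 rose and 1 fell under shYap-1 and 8 rose and 1 fell under shYap-2, with medians of 0.21 and 0.19, beside 37.6% rises and 27.6% falls over all genes under shYap-1 and 43.2% and 30.5% under shYap-2. The count of rises was 8 under shYap-1 once the GC trend was removed, and 5 under shYap-2 under either scaling. The fall was Msra, a methionine sulfoxide reductase named after its values were seen, which did not pass the test under shYap-2 without a filter, with the GC trend removed, or without any one of shCTRL replicates 1 and 3 and shYap-2 replicates 2 and 3. Cat, catalase of the peroxisome, rose from FPKM of 25.01 to 29.64 in shCTRL to 50.84 to 53.33 under shYap-1 and 40.92 to 43.36 under shYap-2 (log2 fold change 0.95 and 0.64). Msrb1, the selenoprotein methionine sulfoxide reductase, rose by 1.05 and 0.70. The superoxide dismutases Sod1 and Sod2 had log2 fold changes of 0.19 and 0.19 under shYap-1 (limma adjusted p = 0.0736 and 0.0636), and rose by 0.16 and 0.19 under shYap-2 (adjusted p = 0.00557 and 0.00862), calls lost with median-of-ratios (adjusted p = 0.183 and 0.0943) and trimmed-mean scaling (adjusted p = 0.137 and 0.0773). That of Sod1 was also lost in 1 fit of all 9 libraries (adjusted p = 0.0637). Under shYap-1 both became calls after removal of the GC trend (0.27 and 0.37, adjusted p = 0.0257 and 0.028) and in the fit of all 9 libraries (adjusted p = 0.0322 and 0.0332), and Sod2 also without shYap-1 replicate 3 (0.25, adjusted p = 0.0396).

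Gpx1, Gpx4, Txnrd1 and Msrb1 carry selenocysteine, and the 8 genes of selenoprotein synthesis, all tested, had medians of -0.01 and 0.12. Under shYap-1 1 rose and 3 fell, and under shYap-2 4 rose and 3 fell. Over all genes 37.6% and 43.2% rose and 27.6% and 30.5% fell. The 4 rises became 2 with either scaling, without shCTRL replicate 3 or shYap-2 replicate 3, and in 1 fit of all 9 libraries. The 3 falls under shYap-1 became 1 without shCTRL replicate 1 or shYap-1 replicate 3. Scly, which frees selenium from selenocysteine, rose by 0.75 and 0.82. Lrp8, a receptor for the selenium carrier selenoprotein P, fell by 1.08 and 0.80, and Secisbp2, which reads the selenocysteine insertion element, fell by 0.26 and 0.31, the former lost without shCTRL replicate 1 or shYap-1 replicate 3 (adjusted p = 0.0729 and 0.0587).

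**Figure D4:**
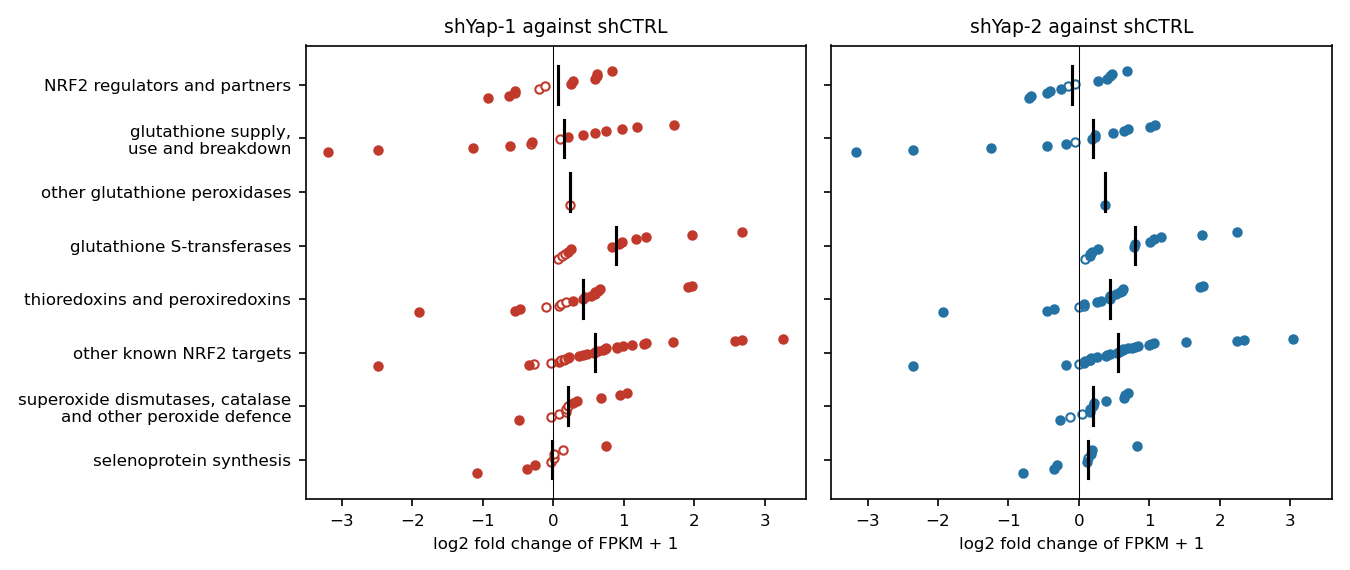
Log2 fold change of FPKM + 1 for each tested gene of the 8 wider lists, under shYap-1 (left) and shYap-2 (right) against shCTRL; filled points passed an adjusted p of 0.05, open points did not, and the black line is the median of the list. The medians of the glutathione S-transferases, 0.89 and 0.79, include 3 genes that passed the filter only through the knockdown libraries and are 0.25 and 0.27 without them; some genes stand in more than 1 list.

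The hairpins were compared with each other in 1 model of all 9 libraries, where 3.29% of 10733 genes were called, 1.93% as higher and 1.36% as lower under shYap-2. Of the 10 genes, Hmox1 was the 1 called. It was lower under shYap-2 by 0.30 on the log2 scale (SE 0.0604, 95% interval -0.43 to -0.16, limma adjusted p = 0.0324), and this call ended when any of 7 of the 9 libraries was left out, all but shCTRL replicate 2 and shYap-1 replicate 2. For the other 9 the difference did not pass the test. Gsr and Srxn1 were the members of these 9 whose knockdown groups did not overlap: Gsr was higher under shYap-2 by 0.12 (95% interval 0.03 to 0.21, adjusted p = 0.126) and Srxn1 lower by 0.17 (95% interval -0.31 to -0.03, adjusted p = 0.155). The share of all genes whose knockdown groups do not overlap was not counted, and an exact permutation test of 3 against 3 cannot go below 0.1. Without shYap-1 replicate 2 the Gsr difference was 0.13 (adjusted p = 0.0343), and after removal of the GC trend it was 0.13 (adjusted p = 0.0353). Both hairpins share the same shCTRL libraries, so their changes against shCTRL are not independent.

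In shCTRL the order of mean FPKM, which is per length, ran from Gpx4 through Gpx1, Txnrd1, Gsr, Gclm, Nfe2l2, Hmox1, Gclc and Srxn1 down to Nqo1, and no neighbours in this order overlapped. Under shYap-1 the order was Gpx4, Gpx1, Txnrd1, Gsr, Hmox1, Gclm, Srxn1, Nfe2l2, Gclc and Nqo1, again with no overlap between neighbours. Under shYap-2 Gclm and Hmox1, which overlapped, stood in the reverse order and the rest was as under shYap-1. Thus Hmox1 and Srxn1 both passed Nfe2l2 in each knockdown, and Srxn1 passed Gclc. The ratio of Gpx4 to Gpx1 was 1.38, 1.29 and 1.4 in shCTRL, 1.56, 1.64 and 1.52 under shYap-1, and 1.47, 1.49 and 1.55 under shYap-2, higher in every knockdown library. The ratio of Gclc to Gclm was 0.403, 0.439 and 0.381 in shCTRL, 0.305, 0.411 and 0.389 under shYap-1, and 0.356, 0.384 and 0.339 under shYap-2, and these ranges overlapped.

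The promoter sequences of the genes were searched for the element that NRF2 binds. RefSeq (GRCm38.p6) promoters, read as the 250 bases before each annotated start, were matched for 7 of the 10 members, at 12 starts: Nfe2l2, Gclm, Gpx1, Gpx4, Nqo1, Txnrd1 and Srxn1. The core of the antioxidant response element, TGACNNNGC on either strand, was found in Nfe2l2, Gclm and 1 of 3 Txnrd1 starts, against 10.2% of all 32851 promoters. This percentage is per start and not per gene, and a gene with several starts has more windows in which to match. Among 10 other genes looked up, Aldh3a1 had no promoter matched, and 3 held the core: Mgst1 and G6pdx, which rose, and Sesn2, which fell. No written rule set the choice of these 10. The windows around the matches of members and other genes are printed with the match in capitals. Capitals that begin with GC are the match on the opposite strand. The windows let genes that fell, a gene that was not called and genes that rose be read side by side.
Nfe2l2, chr2:75704884-75704913, minus strand: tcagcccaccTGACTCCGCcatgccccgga
Gclm, chr3:122245412-122245442, plus strand: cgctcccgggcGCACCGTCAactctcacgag
Txnrd1, chr10:82859103-82859133, plus strand: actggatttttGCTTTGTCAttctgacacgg
Mgst1, chr6:138140460-138140490, plus strand: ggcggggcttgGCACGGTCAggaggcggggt
G6pdx, chrX:74428918-74428948, minus strand: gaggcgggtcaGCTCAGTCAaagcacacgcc
Sesn2, chr4:132510473-132510503, minus strand: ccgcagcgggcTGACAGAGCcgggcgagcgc
The core lies 240 bases before the start in Nfe2l2, 134 in Gclm, 92 in Txnrd1, 56 in Mgst1, 57 in G6pdx and 36 in Sesn2. It was thus present in genes that fell, were not called and rose. In the windows of Nqo1, Gpx1 and Gpx4 none of the 3 motifs searched was found, which says only that these letters are not within 250 bases of the start.

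The second motif searched, TGAGTCA, is the AP-1 type element, and it overlaps the first, since its opposite strand followed by GC also matches the core; it was found in 4.46% of promoters. Srxn1 was the 1 member with it, at 102 and 45 bases before the start, and Aox1, which rose, held it once, 220 bases before its start. The third, TGATGNAAN, is the composite element that CCAAT-enhancer-binding proteins and ATF4 bind in amino acid response genes, and 3.44% of promoters held it. It was found in no member, in Slc7a11 at 66 and 48 bases before the start in opposite orientations, and once in Chac1. The promoters of Srxn1, which rose, and Slc7a11, which fell, are printed whole because they hold these pairs, shown in capitals.
Srxn1, chr2:152105274-152105523, plus strand: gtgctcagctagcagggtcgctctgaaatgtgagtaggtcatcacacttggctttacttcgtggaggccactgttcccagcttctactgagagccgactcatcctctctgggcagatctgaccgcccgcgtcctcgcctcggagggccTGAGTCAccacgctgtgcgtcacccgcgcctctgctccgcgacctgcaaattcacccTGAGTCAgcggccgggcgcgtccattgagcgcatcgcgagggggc
Slc7a11, chr3:50443614-50443863, minus strand: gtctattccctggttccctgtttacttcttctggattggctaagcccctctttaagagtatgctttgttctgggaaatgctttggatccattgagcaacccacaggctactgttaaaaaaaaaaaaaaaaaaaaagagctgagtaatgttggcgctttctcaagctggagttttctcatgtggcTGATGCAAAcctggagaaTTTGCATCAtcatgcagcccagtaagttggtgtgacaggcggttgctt
Srxn1 FPKM was 8.9 to 9.67 in shCTRL and 16.36 to 19.55 over the 6 knockdown libraries, and Slc7a11 was 6.86 to 9.02 and 0.52 to 0.87. A match is a description of the sequence, and binding was not measured.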

How the data were processed

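RNA from 9 libraries was enriched with oligo(dT) and prepared with a NEBNext Ultra kit, per the labels' protocols. The authors deposited FPKM per gene with 2 decimals in 2 tables, 1 per hairpin, of 16530 and 16358 genes; 15926 are in both, and 0 shCTRL values differ between them. The submitters' processing notes list HISAT2 2.1.0, StringTie 1.3.4, RSEM, fastp 0.18.0 and mm10; whether strand was used, the annotation and any filters are not given in the sources used here. Every hairpin-to-shCTRL test stayed inside 1 table, and the hairpins were compared in 1 model of 9 libraries, with limma 3.58.1 (trend on abundance, R 4.3.3) on log2(FPKM + 1), for genes that reached an FPKM of 1 in 3 or more libraries. An exact permutation test of 3 against 3 cannot go below 0.1, and smaller p-values rest on the model. Depth was estimated from the step of low FPKM values (largest error on simulated data 0.15 M); it limits counting error only. GENCODE vM21 gave 16951 symbols.

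The members and lists were chosen with earlier results of these data known. A count of their calls beside the share over all genes is therefore not an independent test. Genes were named by a written rule: the members, 18 listed genes whatever their result, up to 2 rises and 2 falls per list with mean FPKM of at least 5 and a call with both hairpins, and the 5 genes most like Nfe2l2. Msra, Slc3a2, Cth, Aldh3a1, Gpx8 and Nfe2l1 are outside it and were named after their values were seen. On simulated data with 200 changed genes, the shYap-1 fit recovered 50.5% of changes of 0.5 (log2) and 84.8% of those of 1. The shYap-2 fit recovered 82.4% and 97.1%, and 5.68% and 5.12% of calls were false. Far fewer genes were changed there than are called here, and noise was drawn for each gene by itself, without trends across a library. These percentages therefore do not carry over to the fits of the real libraries. The alternatives were other pseudocounts (0.1 and 0.5), no filter or an FPKM of at least 5, median-of-ratios and trimmed-mean scaling, limma without trend, a replicate block, removal of a GC trend, all 9 libraries in 1 fit, and each library left out. The GC trend was fitted for each library on its deviations from the mean of all libraries in the fit. Its removal therefore also takes out differences between groups that follow GC content.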

Additional observations from a re-analysis of the deposited data

Results flagged for a closer look

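Of the genes in the lists, 5 differed between the hairpins by the test of the difference itself in the model of all 9 libraries. Over all genes, 353 of 10733 (3.29%) were called in this comparison, so such calls were not confined to these genes. Hmox1 was lower under shYap-2 than under shYap-1 by a log2 difference of -0.30 (limma adjusted p = 0.0324). Mgst1 had FPKM of 32.18 to 35.57 under shYap-1 and 23.84 to 25.11 under shYap-2, a log2 difference of -0.44 (adjusted p = 0.00977). For Cat the log2 difference was -0.31 (adjusted p = 0.0385), and for Lrp8 it was 0.28 (adjusted p = 0.0444), in each case a smaller change from shCTRL under shYap-2. Nfe2l1, which encodes the NRF2 relative NRF1, had FPKM of 144.51, 145.76 and 137.32 in shCTRL, 164.55, 192.9 and 162.43 under shYap-1, and 135.51, 138.48 and 138.3 under shYap-2, a log2 difference between hairpins of -0.33 (adjusted p = 0.0305). Each of these 5 calls ended when some single libraries were left out: for Mgst1 without any one of the 3 shYap-2 libraries (adjusted p = 0.0603 to 0.0651), for Nfe2l1 without any one of 7 libraries (all but shYap-1 replicates 1 and 2), for Cat without any one of 7 (all but shCTRL replicate 2 and shYap-1 replicate 2), for Lrp8 without any one of 8 (all but shYap-1 replicate 2) and for Hmox1 without any one of 7. Lrp8 also lost its call without a filter (adjusted p = 0.0525), with median-of-ratios and trimmed-mean scaling (adjusted p = 0.0502 and 0.054) and with the replicate block (adjusted p = 0.0736), Cat without a filter (adjusted p = 0.0509), with limma without trend (adjusted p = 0.0537) and with the block (adjusted p = 0.0662), and Hmox1 with the block (adjusted p = 0.0694). The part of the apart-standing shYap-1 replicate 2 in these differences was not tested beyond leaving it out, after which all 5 passed the test. Against shCTRL, Nfe2l1 rose by 0.28 under shYap-1 (limma adjusted p = 0.01485). This call was lost with median-of-ratios and trimmed-mean scaling and without shCTRL replicate 3 (adjusted p = 0.0823, 0.0752 and 0.0582). Its shYap-2 value, -0.05 (adjusted p = 0.182), became a called fall in 5 of 17 alternatives. Among them were both scalings (-0.14 and -0.13) and removal of the GC trend (-0.18, adjusted p = 0.00186).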

How the results depend on the processing

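Of the values of single members under all alternatives, 686 kept their side of the threshold, 21 lost a call and 7 gained one, and none of the called values turned its direction. The counts of members that rose and fell with shYap-1 stayed within 1.5 times, although single calls of Gsr and Gclm moved as the report gives. With shYap-2 the 2 members that fell became 1, Gclc being lost, without a filter, with the GC trend removed, and with the replicate block and GC removal together; leaving out single libraries gave 1 to 2. For the difference between hairpins the 1 member that fell, Hmox1, became 0 with the replicate block (adjusted p = 0.0694), and leaving out single libraries gave 0 to 1; the 0 that rose became 1, Gsr, with the GC trend removed, and leaving out single libraries gave 0 to 1. Over all genes this comparison is the least steady: its 353 calls became 141 with the replicate block, 1156 with the GC trend removed and 951 with both, and 1 to 1646 without single libraries, the highest without shYap-1 replicate 2. The only named gene whose called value turned is Txn1, at -0.0105 and -0.0049 with shYap-2 under median-of-ratios and trimmed-mean scaling, and at -0.0112 and -0.0024 for the mean of both hairpins. Both scalings moved the median of all genes by less than 0.1 and the share of calls that rose from 57.6% to 50.5% and 50.9% (shYap-1) and from 58.6% to 50% and 50.4% (shYap-2). The cause of these changes was not tested. The labels do not say whether replicate numbers pair the samples. Deviations of same-numbered libraries had correlations of -0.237 to 0.344 between shCTRL and shYap-1 and of -0.011 to 0.03 between shCTRL and shYap-2. For libraries of different number they were -0.393 to 0.325 and -0.034 to 0.04. These ranges overlap and do not settle whether the numbers pair samples. With the replicate block Gsr under shYap-1 lost its call (0.17, adjusted p = 0.059). The p-values rest on 3 libraries a group, and depth limits Nqo1 in shCTRL and other genes near an FPKM of 1. In the tests of 1 hairpin against shCTRL, Nqo1 left the test when a knockdown library was left out. The filter asks for an FPKM of 1 in 3 libraries, and no shCTRL library reached it for Nqo1.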
